A study of Mus musculus with 6 samples.

Results

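Genes that interferon-γ is known to induce, beyond the chemokines, guanylate-binding proteins and immunity-related GTPases, were examined in the spleens of lupus-prone mice with and without the interferon-γ receptor. The 10 genes were chosen by name, with earlier results of these data known. They were the protease inhibitors Serpina3f and Serpina3g, the cell death genes Zbp1 and Casp4, the checkpoint ligand gene Cd274 and the transcription factor gene Batf2. The others were the surface protein genes Ly6a and Icam1, and the enzymes Upp1 and Wars. Each of the 10 names occurred at 1 locus that carried no other name, among 44794 named loci in all. The 6 libraries came from spleens of mice given imiquimod 3 times a week for 4 weeks, a compound that activates TLR7, a receptor for single-stranded RNA. In 3 of them the mice were B6.Sle1b, C57BL/6 mice with the lupus-associated interval Sle1b. In the other 3 they were Sle1b.IFNγR-/-, which carry the same interval and are labelled as lacking the interferon-γ receptor. Both groups were treated and no untreated mice were analysed here, and the labels used here give neither the age of the mice nor the receptor chain that was disrupted. The libraries are separate labelled samples. Whether they are different mice is not stated, and a p-value here therefore measures the spread between libraries, which may be technical.

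Interferon-γ binds a receptor of the chains IFNGR1 and IFNGR2, and the kinases JAK1 and JAK2 then pass the signal on. Target genes carry gamma-activated sites (GAS) in their DNA, and induced factors such as IRF1 act through interferon-stimulated response elements (ISRE). In the spleen the response is known from macrophages, dendritic cells, B cells, T cells and endothelium, and its effectors include protease inhibitors, sensors of nucleic acid and of bacterial lipid, adhesion molecules, checkpoint ligands and enzymes of amino acid and nucleoside metabolism.

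Promoter sequence is shown first, because 3 of these genes carry the letters of a gamma-activated site before their start. RefSeq promoter windows on GRCm38.p6, each of 300 bases from 250 before to 50 after a transcription start, were matched for 6 of the 10 genes, Serpina3f, Serpina3g, Cd274, Upp1, Casp4 and Icam1, in 10 windows. Zbp1, Batf2, Ly6a and Wars were not matched. Windows were searched on both strands for GAS, spelled TTCNNNGAA, which reads the same on either strand. GAS letters were found in 4 windows of 3 genes, Serpina3f, Serpina3g and Icam1, and 8.3% of all 32851 windows of this length held them. Both windows of Serpina3f held 1 and the same site, which ended 202 bases before the other start, and the same holds for the ISRE letters below. ISRE was searched in 2 forms that gave different answers. The first, GAAANNGAA with a further A at its end, was found in 0 of these 10 windows and in 3.44% of all. The second, GAAANNGAA alone, was searched after that result had been seen, and was found in 3 windows of 2 genes, Serpina3f and Cd274, and in 8.56% of all. The 150 bases before the start are printed for the 3 genes with GAS and for Cd274, which is shown for the shorter ISRE form. Capitals mark GAS and that shorter form.
Serpina3f (chr12:104214394-104214543, plus strand): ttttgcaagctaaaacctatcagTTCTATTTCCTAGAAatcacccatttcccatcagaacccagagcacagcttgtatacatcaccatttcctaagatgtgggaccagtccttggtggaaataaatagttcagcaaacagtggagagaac
Serpina3g (chr12:104235997-104236146, plus strand): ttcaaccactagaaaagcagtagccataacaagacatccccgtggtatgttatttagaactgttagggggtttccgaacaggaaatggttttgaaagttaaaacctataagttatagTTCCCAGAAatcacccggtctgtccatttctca
Cd274 (chr19:29367288-29367437, plus strand): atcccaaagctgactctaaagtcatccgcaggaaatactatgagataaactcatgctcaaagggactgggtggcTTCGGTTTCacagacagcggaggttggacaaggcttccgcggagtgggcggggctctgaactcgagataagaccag
Icam1 (chr9:21015790-21015939, plus strand): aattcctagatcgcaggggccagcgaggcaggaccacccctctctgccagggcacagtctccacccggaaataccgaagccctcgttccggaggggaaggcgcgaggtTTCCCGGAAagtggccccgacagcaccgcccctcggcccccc

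The GAS letters read TTCCTAGAA in Serpina3f, TTCCCAGAA in Serpina3g and TTCCCGGAA in Icam1. They ended 113, 25 and 34 bases before the RefSeq start in turn. The gene positions given below are from another annotation, GENCODE, which places the start of Serpina3g, Cd274 and Icam1 farther downstream. The distances therefore depend on the annotation used. In Serpina3f the shorter ISRE form, on the minus strand, overlapped GAS by 3 bases, so that the capitals form 1 run there. In Cd274 that form, TTCGGTTTC as read on the plus strand, ended 68 bases before the start. The windows of Serpina3f and Serpina3g aligned over 203 bases with 77.5% identity, and the GAS letters of one lay opposite those of the other. The window of their neighbour Serpina3i also held GAS. A match describes the letters in the window and is no measurement of binding by any factor.

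The authors counted fragments per locus and scaled the counts by quartile, and these scaled counts are the values given here. The libraries held between 4394299 and 6349826 fragments, and a value of 3 fragments equals 2.47 to 3.59 scaled counts. Each value of the 10 genes was a whole number of fragments within 0.01. Differences between genotypes were tested with limma on log2(value + 1) over all 19227 named loci whose mean reached 10, and differences of weakly expressed genes are understated on this scale. Of the 10 genes, 7 reached that mean. Batf2, Upp1 and Wars did not and were not tested. Loci passing a Benjamini-Hochberg adjusted p of 0.05 made up 0% of those tested by limma, and none of the 7 genes passed, each with an adjusted p of 0.99976. An unadjusted p under 0.05 was reached by 596 loci, or 3.1%. Among loci with lower values in Sle1b.IFNγR-/- the share was 2.08% of all tested, and 2 of the 7 genes, Serpina3f and Zbp1, were among them. Among loci with higher values it was 1.02%, with 0 of the 7 genes.

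B6.Sle1b replicate 1 stood apart in RNA level. The median centred log2 level of 30 ribosomal protein genes was 1.44 there and -0.45 in B6.Sle1b replicate 2, and the other 4 libraries lay between -0.38 and -0.019. All 7 tested genes had their highest value in B6.Sle1b replicate 1, and so did 37.9% of all tested loci. Of the 10 genes, 4 (Serpina3g, Casp4, Icam1 and Wars) had their lowest value in B6.Sle1b replicate 2, against 24.3% of tested loci. The part of this library difference in the results was not tested, and values without these libraries are given beside the tested genes whose difference they reverse or move by more than 1.5 times. Spleen markers, listed by name with earlier results of these data known, were present. All 8 B cell markers were measured, with summed scaled counts of 823 to 1797 in the B6.Sle1b libraries and 870 to 956 in Sle1b.IFNγR-/-. All 8 T cell markers were measured too, with 254 to 464 and 258 to 285. Of 8 genes of the adjacent pancreas only 2 reached a mean of 10 and Ins2 was listed at 0.

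**Figure D1:**
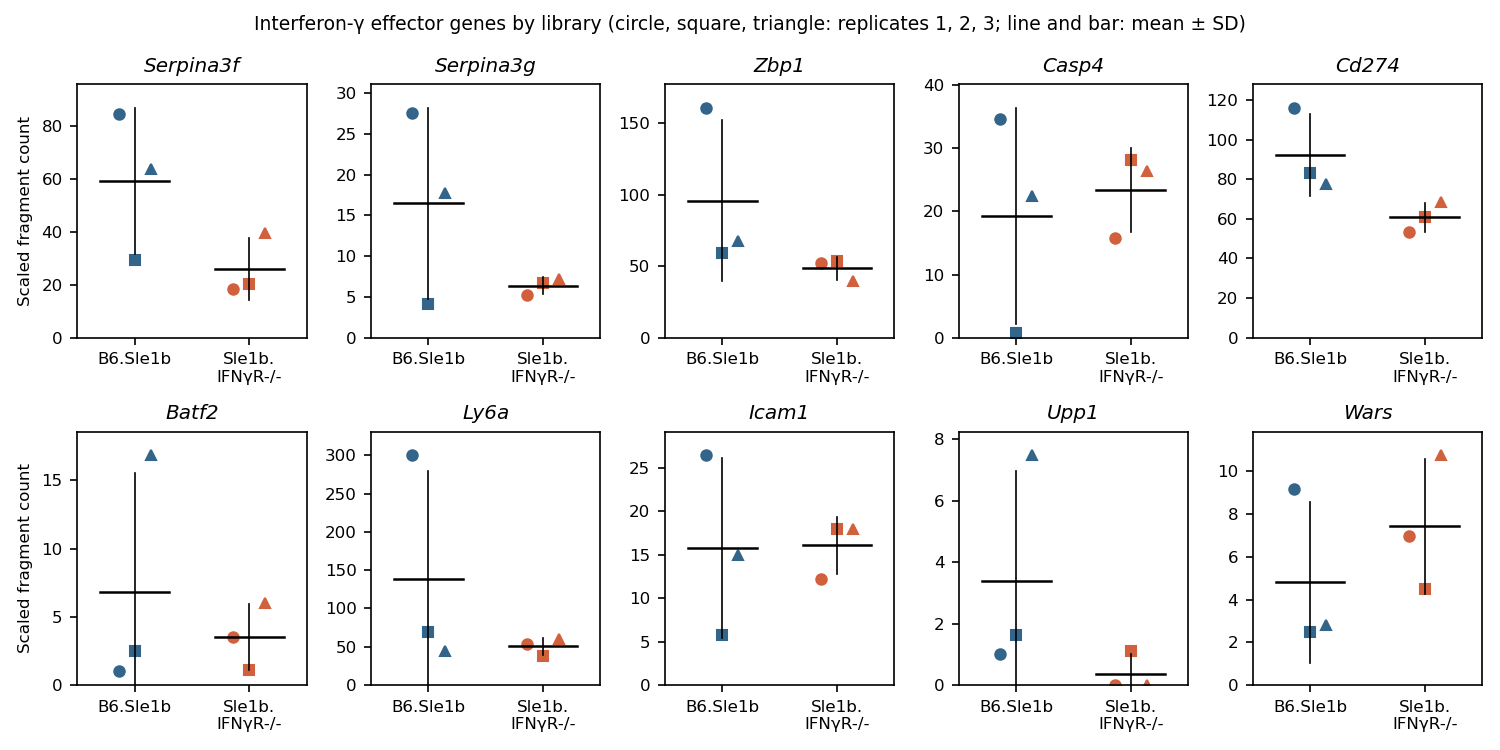
Scaled fragment counts of the 10 genes in the 3 B6.Sle1b (blue) and 3 Sle1b.IFNγR-/- (orange) libraries, with circles, squares and triangles for replicates 1, 2 and 3, a line at the mean and a bar of 1 SD to either side, cut at 0. The groups separate only for Zbp1 and Cd274, and B6.Sle1b replicate 1 is the highest point of all 7 tested genes.

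The 2 protease inhibitor genes had lower means in Sle1b.IFNγR-/-, with wide spread within B6.Sle1b. Serpina3f (chromosome 12, 104214544 to 104221129, GRCm38) encodes a serpin of the mouse antichymotrypsin cluster. Its levels, in scaled counts, were 84.6, 29.6 and 63.7 in B6.Sle1b replicates 1 to 3 and 18.4, 20.2 and 39.5 in Sle1b.IFNγR-/- replicates 1 to 3. The groups overlapped through B6.Sle1b replicate 2 and Sle1b.IFNγR-/- replicate 3, and the other 4 libraries did not. The means were 59.3 ± 27.8 and 26.0 ± 11.7 (SD, n = 3 each). The log2 difference was -1.12 (95% interval -2.07 to -0.16), with an unadjusted limma p of 0.025, and 1.22% of tested loci had a smaller p. It was -0.80 without B6.Sle1b replicate 1 and -1.54 without B6.Sle1b replicate 2, with limma adjusted p of 0.993 and 0.242.

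Serpina3g (chromosome 12, 104236245 to 104241939) encodes an intracellular serpin that inhibits lysosomal cathepsins and is known to protect activated lymphocytes and macrophages. It had 27.5, 4.11 and 17.8 scaled counts in the B6.Sle1b libraries and 5.25, 6.74 and 7.19 in Sle1b.IFNγR-/-. B6.Sle1b replicate 2, with 5 fragments, lay below all the knockout libraries, which had 6 fragments each, while the other 2 B6.Sle1b libraries had 27 and 19. The log2 difference was -0.93 (95% interval -2.60 to 0.74), -0.42 without B6.Sle1b replicate 1 and -1.66 without replicate 2. The quotient of Serpina3f over Serpina3g counts, which the scaling between libraries cannot move, was 3.07, 7.20 and 3.58 in the B6.Sle1b libraries and 3.50, 3.00 and 5.50 in Sle1b.IFNγR-/-. Its log2 value differed by -0.15 between genotypes (two-sided exact permutation p = 0.6, where 3 against 3 libraries allow no p under 0.1), and leaving out 1 library at a time gave values of -0.41 to 0.22.

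The neighbours of these genes in the Serpina3 cluster had values at like levels in both genotypes. Of the 7 other tested loci of the cluster 3 were lower and 4 higher, with a median log2 difference of 0.064, against -0.083 over all tested loci. Serpina3i, the closest in sequence to both among the neighbours whose transcripts were compared, had 91.7, 61.7 and 76.9 scaled counts in the B6.Sle1b libraries. It had 83.1, 102 and 71.9 in Sle1b.IFNγR-/- (log2 difference 0.16, limma unadjusted p = 0.593). Serpina3n, a secreted acute phase serpin, had 97.8, 55.1 and 28.1 against 46.3, 41.6 and 55.1. Their transcripts are similar: the longest protein-coding transcript of Serpina3f matched that of Serpina3g with 88.5% identity and that of Serpina3i with 87.6%, with shared runs of up to 119 and 132 bases. Reads may have been divided between these copies, so single values in the cluster are uncertain.

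**Figure D2:**
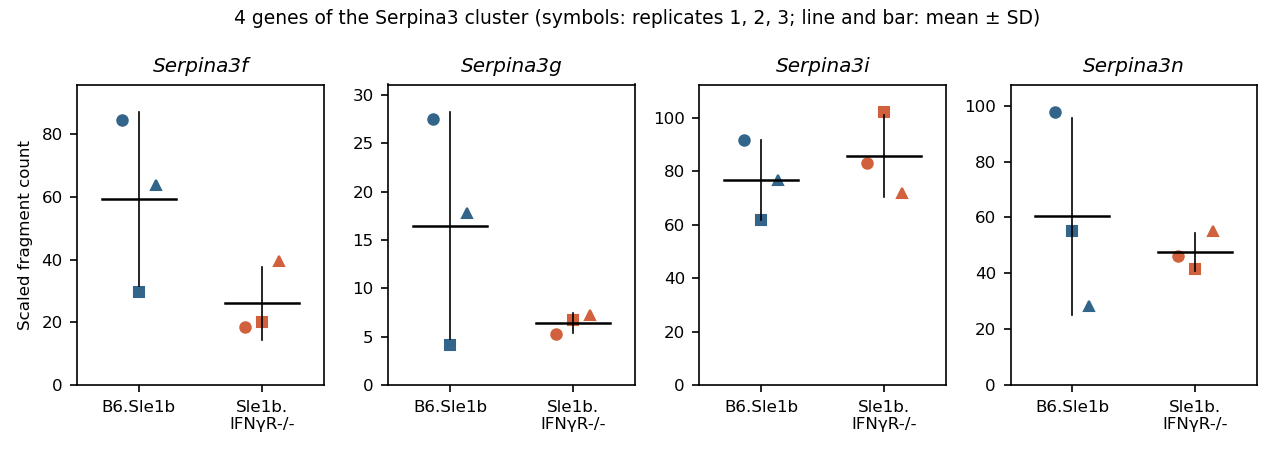
Scaled fragment counts of 4 genes of the Serpina3 cluster by library, with circles, squares and triangles for replicates 1, 2 and 3, a line at the mean and a bar of 1 SD to either side. The means of Serpina3f and Serpina3g are lower in Sle1b.IFNγR-/- (orange) than in B6.Sle1b (blue), whereas Serpina3i lies between 61.7 and 102 in all 6 libraries.

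Zbp1, which encodes a sensor of Z-form nucleic acid that starts RIPK3-dependent necroptosis, was lower in every Sle1b.IFNγR-/- library than in any B6.Sle1b library. Its scaled counts (chromosome 2, 173206612 to 173218923) were 161, 59.2 and 67.5 in the B6.Sle1b libraries and 52.5, 53.9 and 39.5 in Sle1b.IFNγR-/-. The gap between the lowest B6.Sle1b and the highest knockout library was small beside the distance of B6.Sle1b replicate 1 from the rest. The groups were also separate and lower in 5.19% of all tested loci, and in 2 of the 10 genes, Zbp1 and Cd274. Separate groups with higher knockout values were seen at 3.51% of loci and in 0 of the 10 genes. The log2 difference of Zbp1 was -0.83 (95% interval -1.65 to -0.0040), with an unadjusted limma p of 0.049. It was -0.38 without B6.Sle1b replicate 1 and -1.10 without replicate 2. After scaling each library to its ribosomal protein genes the difference was -0.30 (limma unadjusted p = 0.585), with means of 72.3 ± 11.4 and 58.1 ± 3.89 (SD, n = 3 each). The groups then lay apart by a narrow margin, 61.5 in the lowest B6.Sle1b library against 60.8 in the highest knockout library. Separation in that direction under this scaling was seen at 0.442% of tested loci, and it was picked out for Zbp1 after its values were seen.

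Casp4, the gene of the inflammatory caspase that binds bacterial lipopolysaccharide in the cytosol and cleaves gasdermin D, did not share this pattern. Its scaled counts (chromosome 9, 5308828 to 5336783) were 34.6, 0.822 and 22.5 in the B6.Sle1b libraries and 15.7, 28.1 and 26.4 in Sle1b.IFNγR-/-. B6.Sle1b replicate 2 held 1 fragment, and the other 5 libraries held between 18 and 34. The log2 difference of 1.04 (95% interval -0.85 to 2.93) therefore rested on that library under the quartile scaling and was -0.29 without it. It was 1.86 without B6.Sle1b replicate 1. With the ribosomal protein level as a covariate it was 1.97 (95% interval 0.60 to 3.34, limma unadjusted p = 0.0065, adjusted p = 0.854). Scaled to ribosomal protein genes, the values were 13.2, 1.17 and 23.7 against 18.2, 31.2 and 35.8, with overlap. Among 8 other tested genes of necroptosis and inflammatory cell death 6 were lower and 2 higher, with a median of -0.28 and 0 past the threshold. With Zbp1 and Casp4 included the median was also -0.28, and -0.089 without B6.Sle1b replicate 1. Ripk3, the kinase that Zbp1 engages, had 38.7, 41.9 and 32.8 against 27.98, 31.5 and 28.7, separate between groups (log2 difference -0.35, limma unadjusted p = 0.307). Mlkl, the pore-forming protein of necroptosis, had 0 in all B6.Sle1b libraries and at most 2.25 scaled counts in the others. Casp1, the caspase that matures interleukin-1β, had 26.5, 0 and 8.44 against 1.75, 0 and 8.38, below the minimum mean and at 0 in a library of each genotype.

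Cd274 encodes PD-L1, the ligand that restrains T cells through PD-1. It had the narrowest spread of the 10 genes, with a log2 range of 1.11 over the 6 libraries. The scaled counts (chromosome 19, 29367455 to 29388095) were 116, 83.03 and 77.8 in the B6.Sle1b libraries and 53.3, 60.7 and 68.3 in Sle1b.IFNγR-/-, so that each knockout library lay below each B6.Sle1b library. The means were 92.3 ± 20.8 and 60.8 ± 7.47 (SD, n = 3 each). The log2 difference was -0.58 (95% interval -1.22 to 0.056, limma unadjusted p = 0.0706), and -0.40 without B6.Sle1b replicate 1. A difference as low or lower was seen at 13.3% of tested loci. Scaling to ribosomal protein genes brought it to -0.052, with 81.5 ± 36.8 against 74.0 ± 16.5 and overlap, while the median of all tested loci moved from -0.083 to 0.43. The other log2 differences under that scaling were -0.59 for Serpina3f, -0.42 for Serpina3g, -0.30 for Zbp1, -0.44 for Ly6a, 1.63 for Casp4 and 0.75 for Icam1. Relative to the shifted median they were -1.02, -0.85, -0.73, -0.86, 1.21 and 0.32 in the same order, and -0.48 for Cd274. Casp4 had the smallest limma unadjusted p of these, 0.0309, in the higher direction. Scaling to the total of named loci moved the median of all loci by 0.14 and left the sign of each of the 7 genes as it was.

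Of 5 other tested checkpoint genes 4 were lower and 1 higher, with a median of -0.44 and 0 past the threshold. Pdcd1lg2, the second ligand of PD-1, had 50.9, 24.7 and 46.9 against 41.1, 39.3 and 53.9, a log2 difference of 0.18. Pdcd1, the receptor gene, was seen in B6.Sle1b replicate 1 alone, at 6.11 scaled counts. Ctla4, an inhibitory receptor of T cells, had 54.0, 45.2 and 56.2 against 35.9, 40.5 and 37.1 without overlap (log2 difference -0.44, limma unadjusted p = 0.175).

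Batf2 encodes an AP-1 family factor known from activated macrophages and dendritic cells. It was too low to test, with 1, 3 and 18 fragments in the B6.Sle1b libraries and 4, 1 and 5 in Sle1b.IFNγR-/- (chromosome 19, 6140983 to 6172476). B6.Sle1b replicate 3 thus held 18 of the 22 fragments of its group, and the other libraries could not be told from each other at this depth. The pooled ratio of B6.Sle1b to Sle1b.IFNγR-/- was 1.93, with a 95% exact interval of 0.878 to 4.57 that covers counting error only. Its relative Batf, which works in B and T cells, had 7.13, 2.47 and 5.62 scaled counts against 0.874, 1.124 and 0, or 16 fragments against 2, and Batf3 had at most 4.69 in any library. Only 3 genes of this list were tested, the AP-1 partners Jun and Jund and the partner factor Irf4. All 3 were lower, with a median of -0.86, and -0.35 without B6.Sle1b replicate 1, and none passed.

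Ly6a, which encodes the surface protein Sca-1 of stem cells, activated lymphocytes and endothelium, had the largest distance between B6.Sle1b libraries of the 10 genes in scaled counts. Its scaled counts (chromosome 15, 74994877 to 74998031) were 301, 69.1 and 45.0 in the B6.Sle1b libraries and 53.3, 38.2 and 59.9 in Sle1b.IFNγR-/-. Only B6.Sle1b replicate 1 and, by a small margin, replicate 2 lay above all knockout libraries, and replicate 3 lay within them. The log2 difference was -0.97 (95% interval -2.14 to 0.21), -0.17 without B6.Sle1b replicate 1 and -1.52 without B6.Sle1b replicate 3, so that its size depended on single libraries. Of 6 other tested Ly6 genes 3 were lower and 3 higher, with a median of 0.0005. Over all 7 tested genes of the family, Ly6a included, the median was -0.14, and 0.29 without B6.Sle1b replicate 1. Ly6c2, a marker of inflammatory monocytes, had 100.9, 32.1 and 16.9 against 21.9, 15.7 and 15.6, again highest in B6.Sle1b replicate 1, while Ly6c1 had 45.9, 29.6 and 37.5 against 37.6, 50.6 and 35.9. The Ly6a transcript matched those of Ly6c1, Ly6c2, Ly6g and Ly6i with 81.4% to 84.8% identity, so reads may have been divided here too.

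Icam1, the adhesion molecule by which endothelium and antigen-presenting cells hold leukocytes through the integrin LFA-1, did not differ beyond the spread between libraries. Its scaled counts (chromosome 9, 21015985 to 21028817) were 26.5, 5.75 and 15.0 in the B6.Sle1b libraries and 12.2, 17.98 and 17.97 in Sle1b.IFNγR-/-. The 3 knockout libraries lay within the range of B6.Sle1b. The log2 difference was 0.23 (95% interval -1.002 to 1.46), an interval that includes a halving and a doubling, and it was -0.32 without B6.Sle1b replicate 2 and 0.70 without B6.Sle1b replicate 1. The genes of both LFA-1 chains, Itgal and Itgb2, had log2 differences of -0.64 and -0.78 and were highest in B6.Sle1b replicate 1. Itgb2 had 324, 40.3 and 112 against 67.3, 53.9 and 79.1.

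The metabolic genes Upp1 and Wars were at the edge of detection. Upp1, whose product cleaves uridine, had 1, 2 and 8 fragments in the B6.Sle1b libraries and 0, 1 and 0 in Sle1b.IFNγR-/- (chromosome 11, 9118103 to 9136170). The pooled ratio was 9.67, with a 95% exact interval of 1.41 to 416 from counting alone, and 8 of the 11 fragments of B6.Sle1b came from replicate 3. The interval does not cover the spread between libraries. Of 6 other tested genes of uridine salvage and breakdown 5 were lower and 1 higher, with a median of -0.20, and of -0.050 without B6.Sle1b replicate 1.

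Wars, the cytosolic tryptophanyl-tRNA synthetase gene, had 9, 3 and 3 fragments in the B6.Sle1b libraries and 8, 4 and 9 in Sle1b.IFNγR-/- (chromosome 12, 108860030 to 108894174). The groups overlapped, and the pooled ratio of B6.Sle1b to Sle1b.IFNγR-/- was 0.628 (95% exact interval 0.301 to 1.28). Of the other cytosolic tRNA synthetases 18 were tested, 12 lower and 6 higher, with a median of -0.11, and of 0.048 without B6.Sle1b replicate 1, and 0 past the threshold. Aars, the alanyl-tRNA synthetase gene, had the smallest p of them, at 60.5 ± 7.12 and 38.4 ± 9.998 (SD, n = 3 each, limma unadjusted p = 0.06).

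Per kilobase of annotated exon, Ly6a was highest in each of the 6 libraries, at 249.5, 57.3 and 37.3 scaled counts per kilobase in the B6.Sle1b libraries and 44.3, 31.7 and 49.7 in Sle1b.IFNγR-/-. Zbp1, Serpina3f and Cd274 followed in B6.Sle1b, with means of 27.2, 25.9 and 25.5, and their ranges over libraries overlapped (16.8 to 45.6, 12.9 to 36.9 and 21.5 to 32.1). In Sle1b.IFNγR-/- the order of these 3 was Cd274, Zbp1 and Serpina3f, at 16.8, 13.8 and 11.4, again with overlapping ranges. Serpina3g, Casp4 and Icam1 had means per kilobase of 7.83, 5.21 and 3.61 in the B6.Sle1b libraries and 3.04, 6.31 and 3.68 in Sle1b.IFNγR-/-. Batf2, Upp1 and Wars lay at 2.69, 1.73 and 1.397 in the B6.Sle1b libraries and 1.402, 0.191 and 2.15 in Sle1b.IFNγR-/-.

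**Figure D3:**
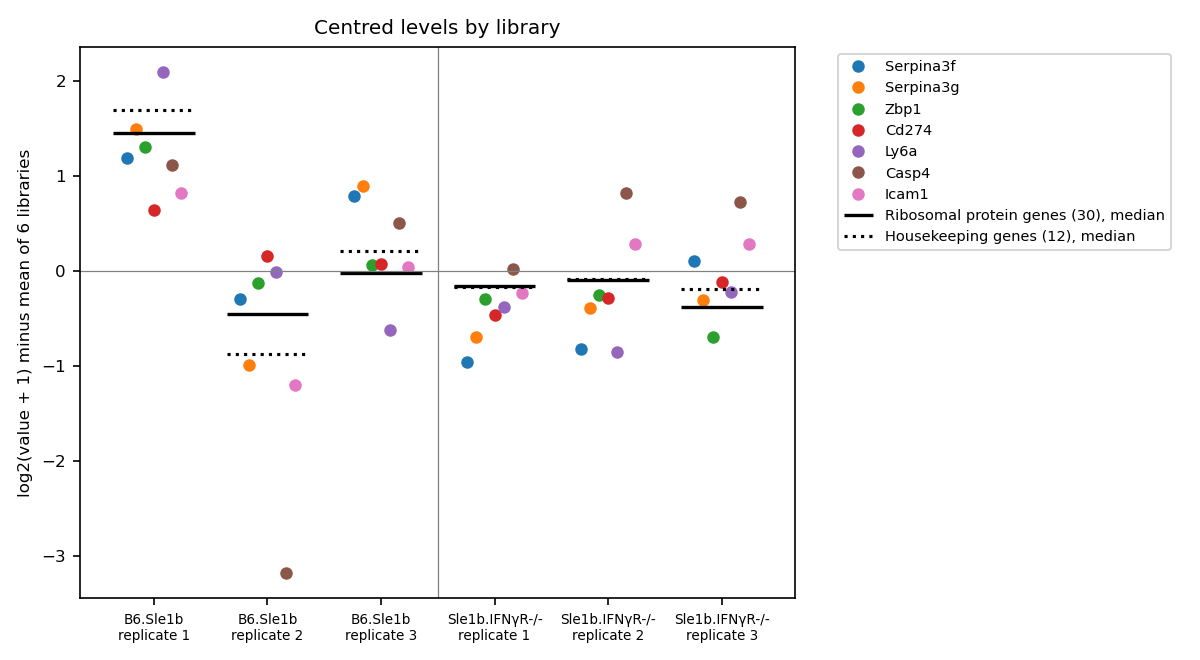
log2(value + 1) of the 7 tested genes minus each gene's mean over the 6 libraries (points), with the median of 30 ribosomal protein genes (solid bar) and 12 housekeeping genes (dotted bar) of each library. B6.Sle1b replicate 1 is high for both sets of bars and for all 7 genes, and Casp4 in B6.Sle1b replicate 2 is the lowest point.

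As a group, 5 of the 7 tested genes had negative log2 differences, against 58.1% of all tested loci. Their median was -0.83, against -0.083 over all tested loci. It was -0.30 with scaling to ribosomal protein genes, where the median of all tested loci was 0.43. With the ribosomal protein level as a covariate it was -0.37, against 0.0115 over all tested loci. The single values with that covariate were -0.82 for Serpina3f, -0.37 for Serpina3g, -0.40 for Zbp1, -0.44 for Cd274, -0.31 for Ly6a, 1.97 for Casp4 and 0.71 for Icam1. The 7 genes passed a filter on their mean, and the 10 genes were chosen with earlier results of these data known. None of the numbers in this paragraph is therefore support for a change of the group. Over all 10 genes 7 differences were negative and the median was -0.70, against -0.077 over the 35092 named loci with any value. Without B6.Sle1b replicate 1 the median of the 7 was -0.38, against 0.019 over all tested loci. Without B6.Sle1b replicate 2 all 7 were negative, with a median of -1.10, against -0.17.

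**Figure D4:**
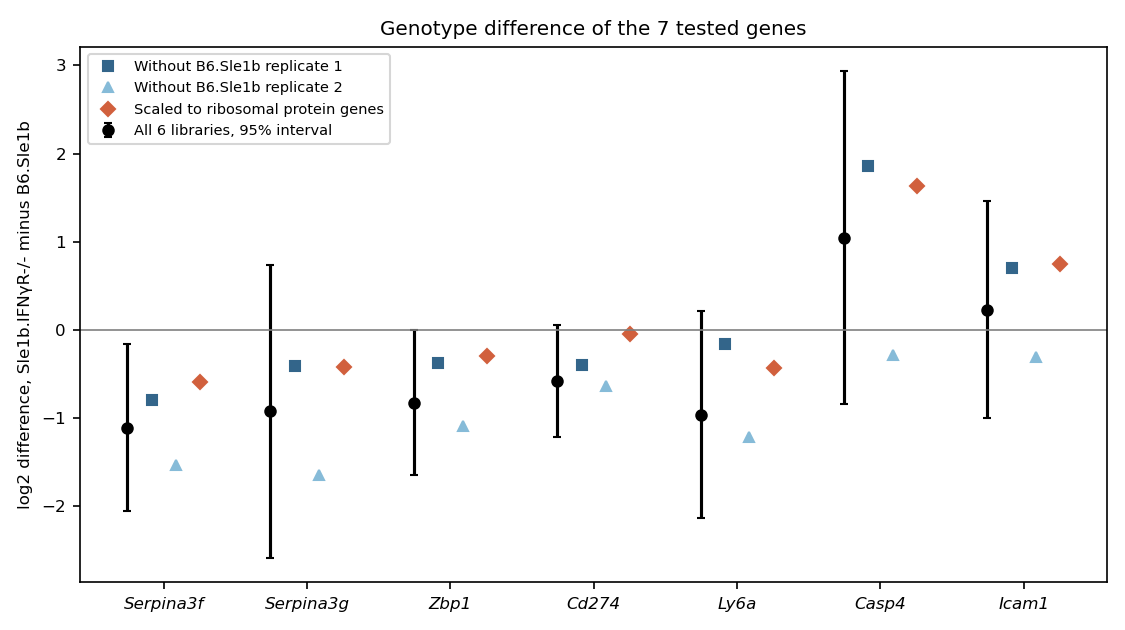
log2 difference between Sle1b.IFNγR-/- and B6.Sle1b for the 7 tested genes with all 6 libraries (black, with 95% intervals), without B6.Sle1b replicate 1, without B6.Sle1b replicate 2 and after scaling to ribosomal protein genes. Serpina3f, Serpina3g, Zbp1, Cd274 and Ly6a are below 0 in all 4 settings, and Casp4 and Icam1 change sign without B6.Sle1b replicate 2.

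**Figure D5:**
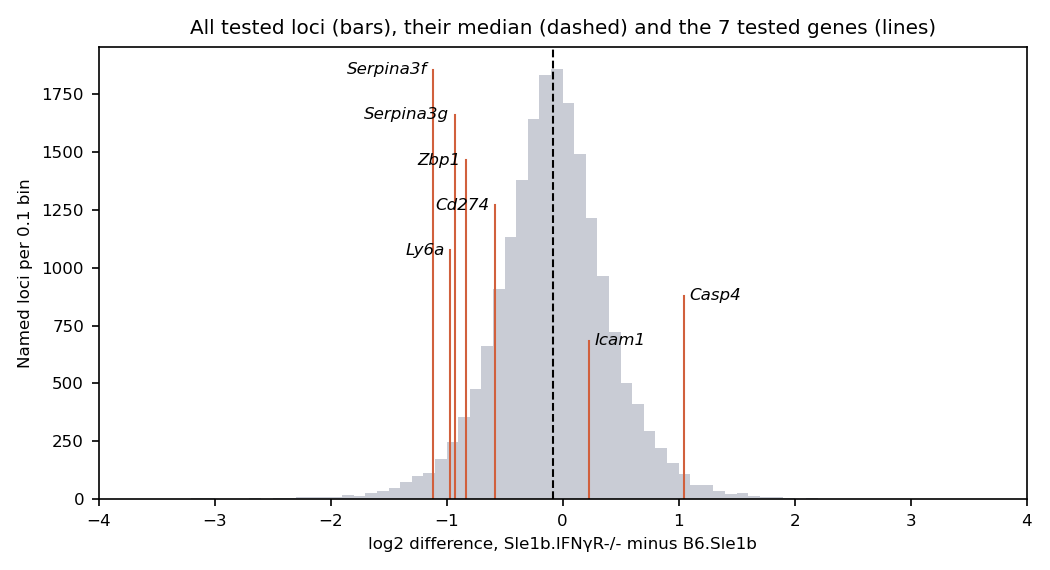
Distribution of the log2 difference over all 19227 tested loci in bins of 0.1 (bars), with their median (dashed) and the values of the 7 tested genes (lines, their heights only separate the names). Serpina3f at -1.12 and Casp4 at 1.04 lie farthest out, and Icam1 at 0.23 lies near the middle.

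A list of interferon-γ receptor signalling held the cytokine, the receptor, kinases and regulators, and also genes the cytokine is known to induce, such as Irf1, Socs1 and Ciita. Of its 16 genes 15 were matched and 12 tested, 10 lower and 2 higher, where 58.1% of all tested loci were lower, and none passed the threshold. They had a median of -0.40, and of -0.13 without B6.Sle1b replicate 1. Irf1, the gene of a transcription factor of the response, had 33.6, 15.6 and 11.2 scaled counts in the B6.Sle1b libraries against 8.74, 22.5 and 7.19 in Sle1b.IFNγR-/-, with overlap. Ifng, the gene of the cytokine itself, had 6, 5 and 4 fragments against 3, 0 and 2, too few to test. The receptor genes were still read in the knockout libraries. Ifngr1, which encodes the chain that binds the cytokine, had 81.5, 34.5 and 63.7 scaled counts in the B6.Sle1b libraries against 43.7, 21.4 and 23.96, with overlap (log2 difference -0.98, limma unadjusted p = 0.0318, under 0.05 for no other gene of this list). Ifngr2, the signalling chain, had 13.2, 12.3 and 7.4997 against 5.25, 10.1 and 4.79, with overlap and below the minimum mean. The disrupted part of the receptor is not given in the labels used here, so these reads are no check of the genotype.

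Marker lists of other cell types and of general RNA level mostly had lower means too, and erythroid markers higher ones, with none past the threshold. In bulk RNA fewer cells of a type and less RNA per cell cannot be told apart. All 8 monocyte markers had lower means on the log scale, with a median of -0.33, and summed scaled counts of 234 to 1363 in the B6.Sle1b libraries and 345 to 401 in Sle1b.IFNγR-/-. Of the antibody-forming cell markers 5 of 8 were tested and all 5 were lower, with a median of -1.26, sums of 156 to 700 against 122 to 139, and Tnfrsf17 listed at 0. Endothelial markers, 7 of 8 tested, had a median of -0.14 and sums of 360 to 515 against 381 to 461, and red pulp macrophage markers, 8 of 8 tested, a median of -0.045 and sums of 333 to 1136 against 479 to 537. B cell markers were lower for 7 of 8, with a median of -0.28, T cell markers for 4 of 6 tested, with -0.19, and neutrophil markers for 4 of 4 tested, with -0.40. Ribosomal protein genes were lower for 26 of 28 tested, with -0.49, and housekeeping genes for 11 of 12, with -0.41. Erythroid markers were higher for 7 of 8, with 0.19. Without B6.Sle1b replicate 1 the medians were 0.11 for B cells, -0.084 for T cells, 0.094 for neutrophils, 0.092 for ribosomal protein genes, 0.20 for housekeeping genes and 1.102 for erythroid markers. They were -0.11 for monocytes, -0.54 for antibody-forming cells, -0.035 for endothelium and 0.27 for red pulp macrophages. Their part in the values of the 10 genes was not tested.

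Loci whose profile over the 6 libraries was most like the mean profile of the 10 genes were ranked by the root mean square difference of centred log2(value + 1) values. The 5 nearest were Nrros, Rbm25, Camk1d, Mier1 and Galnt1, at differences of 0.069, 0.093, 0.10, 0.11 and 0.12. The 10 genes themselves lay between 0.39 (Cd274) and 1.18 (Casp4) from their own mean profile. Nrros had 55.0, 18.9 and 42.2 scaled counts in the B6.Sle1b libraries and 24.5, 27.0 and 34.7 in Sle1b.IFNγR-/-, with a log2 difference of -0.31. These 5 genes followed the high and low libraries of B6.Sle1b, which the ranking selects for and which is therefore no separate result. The ranking also sets much of their genotype difference and spread, and 0 of them had an unadjusted limma p under 0.05.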

How the data were processed

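Spleen RNA of 6 labelled samples was sequenced from libraries made with the NuGEN Ovation V2 amplification kit, per the labels' protocols. The submitters' processing notes name build GRCm38 and the tools Cufflinks 2.2.1, TopHat2 2.0.9 and CASAVA. How strand and multiply mapping reads were handled, and the annotation, is not given in the sources used here, so antisense and overlapping genes are not separated. The deposited signal is a fragment count per locus that the authors scaled by quartile, as its name and header state. The 1530481 rows of the table were collapsed to 426574 loci (0 disagreed between repeated rows), and 24 other columns of per-sample values were not used. In each library 99.8% of positive values were whole multiples of a step within 0.01. The rest were not, so no count test was run. Library precision is limited by 4394299 to 6349826 fragments, of which 17.5% to 27.0% lay on named loci. The rest lay on 381780 loci without a gene name.

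The 19227 of 44794 named loci whose mean reached 10 were fitted on log2(value + 1) with the trend option of limma 3.58.1 under R 4.3.3, with genotype as the only term and Benjamini-Hochberg adjustment over these loci at 0.05. The procedure was run on simulated counts that had the same dispersion at all loci and no library set apart. That run does not cover library differences like those seen here. The ISRE motif was first searched in a longer form, and the shorter form was added after that result had been seen, for no biological reason. Ratios were compared with exact permutation tests in scipy 1.17.1. Gene positions came from GENCODE M21 on GRCm38. The 10 genes, the lists and the alternatives were chosen with earlier results of these data known. All 10 genes are named, and of other lists the relatives of a member and up to 3 genes of smallest p. The nearest profiles skip predicted genes, clones, pseudogenes, small RNAs and receptor segments. Zbp1's separation after ribosomal scaling was noted after its values were seen. Alternatives were other scalings, filters, pseudocounts, a covariate, a replicate block, robust variance and leaving out each library.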

Additional observations from a re-analysis of the deposited data

How the results depend on the processing

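Of 108 values of the 7 tested genes under 16 alternatives, 106 kept their direction and none passed an adjusted limma p of 0.05, the lowest being 0.242. The changed filters, the replicate block and the robust variance cannot alter a gene's log2 difference, so their values kept direction by construction. All alternatives refit the same 6 libraries and are not independent of each other. Without B6.Sle1b replicate 2 the log2 difference became -0.29 for Casp4 and -0.32 for Icam1, since that library held the lowest value of both; with other single libraries left out they went up to 1.86 and 0.70. The count of all loci past the threshold went from 0 to 1 with scaling to the total of named loci, to 1 with scaling to ribosomal protein genes and to 7 with the ribosomal protein level as a covariate, and lay between 0 and 5 with 1 library left out at a time, reaching 5 without B6.Sle1b replicate 1 and 5 without replicate 2. The cause was not tested. A minimum mean of 50 left 3 genes, all negative, because fewer were tested. The log2 difference of the Serpina3f to Serpina3g quotient lay between -0.41 and 0.22 with 1 library left out at a time, with values of 0.22 without B6.Sle1b replicate 2 and 0.031 without Sle1b.IFNγR-/- replicate 2. With the replicate number as a block 0 loci passed, and 567 loci had an unadjusted limma p under 0.05 in place of 596. The median of the 7 genes was again -0.83, which is fixed because each number holds 1 library of each genotype. Deviations of libraries of the same number correlated by 0.0119, -0.027 and -0.0113 over tested loci. These values show no pairing by number, but with 3 libraries per genotype they cannot exclude one, and the labels used here do not state it. The count of promoter windows with ISRE letters was 3 with the shorter form and 0 with the longer. The planned tests on whole fragments with count models were not run. Counts of up to 9 fragments (Wars) or 18 (Batf2) per library set the limit for the genes that were not tested.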

Other observations

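After scaling each library to its ribosomal protein genes, Wars had 3.50, 3.51 and 2.97 in the B6.Sle1b libraries and 8.10, 4.996 and 14.6 in Sle1b.IFNγR-/-, without overlap. Values were separate and higher in this direction at 8.33% of tested loci under that scaling. The counts behind it are 15 fragments in the B6.Sle1b libraries and 21 in Sle1b.IFNγR-/-, and the comparison was chosen after the values were seen.

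Within the Ly6 family, Ly6h had 1.02, 6.58 and 8.44 scaled counts in the B6.Sle1b libraries and 8.74, 38.2 and 11.98 in Sle1b.IFNγR-/- (log2 difference 1.70, limma unadjusted p = 0.07). Ly6f, below the minimum mean, had 8.15, 4.93 and 2.81 against 13.1, 13.5 and 9.58. In both genes the groups did not overlap. The margin in Ly6h was 9 fragments in B6.Sle1b replicate 3 against 10 in Sle1b.IFNγR-/- replicate 1. Groups were separate in this direction at 3.51% of tested loci, a share that does not cover the untested Ly6f. Sele, the endothelial selectin gene, held the letters of GAS and of the shorter ISRE form in its RefSeq window, and had 34.6, 23.8 and 60.9 scaled counts against 27.98, 31.5 and 39.5.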
